A study of Mus musculus with 10 samples.

Results

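Müller glia span the whole depth of the retina and support its neurons, and 39 genes that mark these cells at rest or when they react to stress were followed in total RNA from 10 mouse retinas. The genes were chosen by name and all 39 were found among the 25905 genes measured: 19 identity genes such as Glul, Aqp4 and Sox9, 17 reactive genes such as Gfap, Edn2 and Lcn2, and the 3 metallothioneins Mt1, Mt2 and Mt3. The retinas came from 5 wild-type C57BL/6J mice (numbers 61, 64, 65, 66 and 68) at postnatal day 34, with 5 right and 5 left retinas. In each mouse 1 eye had worn a lens of −20 dioptres from postnatal day 24 for 10 days, a treatment that puts the image behind the retina and drives the eye towards myopia, while the fellow eye had none. The labels give the side and the mouse of each retina but not the eye that wore the lens, so right is compared with left, fellow eye with fellow eye whichever the side, and mouse with mouse, and no retina is called lens-treated. Goggles were attached under ketamine and xylazine, and every mouse had both a goggled and an ungoggled eye, so no animal was free of the procedure.

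Resting Müller glia take up glutamate and turn it into glutamine, move water and potassium, hydrate carbon dioxide and supply lipids to neurons. After injury or sustained stress they undergo gliosis: cytokines of the gp130 family signal through STAT3, intermediate filaments accumulate, and acute-phase proteins, growth factors and metal-binding proteins are made. Gfap in a healthy mouse retina is made mostly by the astrocytes of the nerve fibre layer and appears in Müller glia on gliosis. In whole-retina RNA a smaller number of cells and less RNA per cell cannot be told apart, and several members are also made by other cells of the eye.

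Levels are in CPM, that is, read counts relative to the size of each library, with no division by gene length. By the smallest steps between low values, 1 CPM stood for 89.3 to 113.5 counts in these libraries, and the listed genes held 29570000 to 37160000 counts in each. The listed genes summed to 321661 to 346696 CPM, so most of each CPM denominator lay outside them. Markers of retinal neurons were present in every library, with the rod bipolar cell kinase gene Prkca at 102 to 121 CPM and the ganglion cell factor Pou4f1 at 4.27 to 5.93 CPM. The right retina of mouse 65 carried 765 CPM of 8 lens genes in sum, which was between 6.95 and 107 CPM in the other libraries. The left retina of mouse 68 carried 54.35 CPM of 5 skeletal muscle genes in sum, which was at most 2.98 CPM elsewhere. The labels add that raw reads of the right retina of mouse 64 were partly lost to file damage. In the deposited values its listed genes held 34180000 counts, within the range of the other libraries. For some results that rested on mice 65 or 68, the value without them is given beside the result or in the last section. For others, such as Apoe, Cp and A2m, none is given.

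The most abundant members were identity genes, and the members of lowest level were reactive genes. To compare genes with each other, the mean CPM was divided by the length of a gene's merged exons in GENCODE M21. On this scale of CPM per kilobase, Glul, the glutamine synthetase that defines Müller glia, stood at 181.5, followed by the lipid carrier Apoe at 48.5, the secreted protein Dkk3 at 44.7, the carbonic anhydrase Car2 at 34.5 and the extracellular chaperone Clu at 20.5. At the other end were the endothelin gene Edn2 at 0.0875, the cytokine gene Lif at 0.0360 and the NF-kB cofactor Bcl3 at 0.0197 CPM per kilobase. Gfap stood at 0.747 CPM per kilobase, below the other filament gene Vim at 5.46 and above Nes at 0.476. Mt1 led the metallothioneins at 7.01 CPM per kilobase, with Mt2 at 3.75 and Mt3 at 2.28. The level of a gene with many annotated exons is understated by this division.

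**Figure D1:**
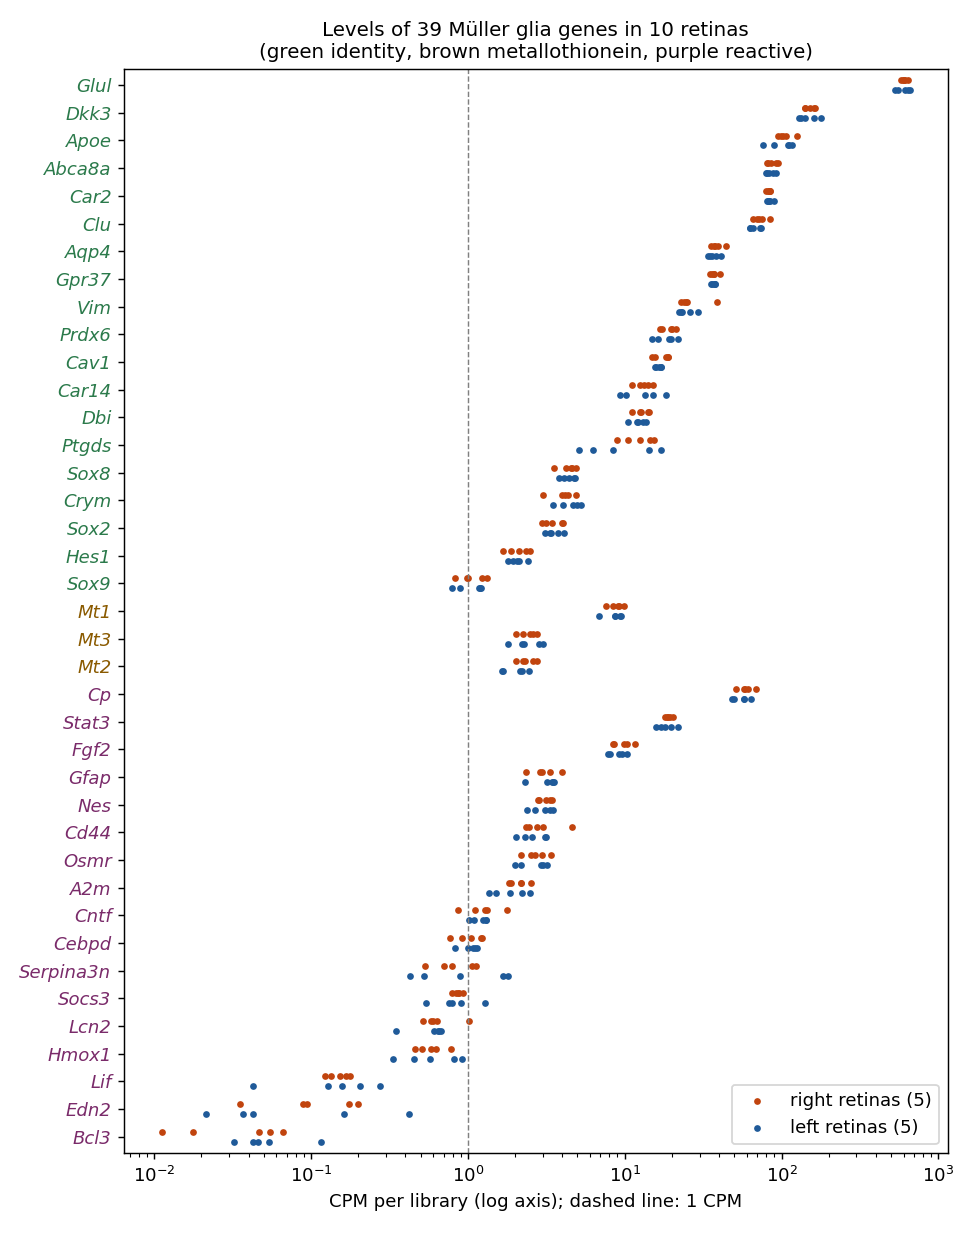
Level of each of the 39 genes in CPM (log axis) in the 5 right retinas (orange, upper row of each gene) and the 5 left retinas (blue, lower row), with identity genes in green, metallothioneins in brown and reactive genes in purple type. The points of the identity genes lie close together, from Glul at a mean of 603.1 CPM down to Sox9 near 1 CPM, while Edn2, Lif and Bcl3 lie well under the dashed line at 1 CPM.

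Of the 39 members, 32 had a mean of at least 1 CPM and were tested with all other genes of that level. The 7 below it were reactive genes: Socs3, Lcn2, Serpina3n, Edn2, Hmox1, Bcl3 and Lif. All 19 identity genes and all 3 metallothioneins were tested. Across the 10 libraries the highest value was less than 2 times the lowest for 18 of 19 identity genes, the exception being Ptgds, and for 8 of the 10 tested reactive genes, the exceptions being Cd44 and Cntf. For the 7 reactive genes under 1 CPM the highest was from 2.38 times (Socs3) to 19.85 times (Edn2) the lowest.

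No member passed the test of right against left retinas. The test was limma on log2(CPM + 1) with the mouse as a block. It was two-sided, and p-values were adjusted by Benjamini-Hochberg across the 14210 genes tested. It called 0 of the 32 members, where it called 0% of all tested genes, and every member had an adjusted p of 0.9996. At an unadjusted p under 0.05 it had 1 member, Fgf2, against 2.34% of all tested genes. For 0 of the 39 members were all 5 right retinas on one side of all 5 left retinas (0.289% of all tested genes). The 95% interval of Car2 ran from −0.10 to 0.05 log2 units that of Abca8a from −0.04 to 0.11, and that of Ptgds up to 0.75.

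The members stood slightly higher on the right on average, and that lean was not kept without mice 65 and 68. In the mean of the 5 mice 27 of 32 members were above 0, beside 51.1% of all tested genes, with a median difference of 0.04 log2 units beside 0.002 for all tested genes. By class, 15 of 19 identity genes (median 0.03), 9 of 10 tested reactive genes (median 0.05) and 3 of 3 metallothioneins (median 0.04) were above 0. Without mouse 65 the count was 19 of 32, beside 45.8% of all genes, with 9 of 19 identity and 8 of 10 reactive genes. Without mouse 68 alone it was 26 of 33, beside 53.4%, with 16 of 19 identity and 7 of 11 reactive genes. Without mice 65 and 68 it was 13 of 33, beside 45.8%, with 7 of 19 identity and 4 of 11 reactive genes and a median of −0.007 log2 units.

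**Figure D2:**
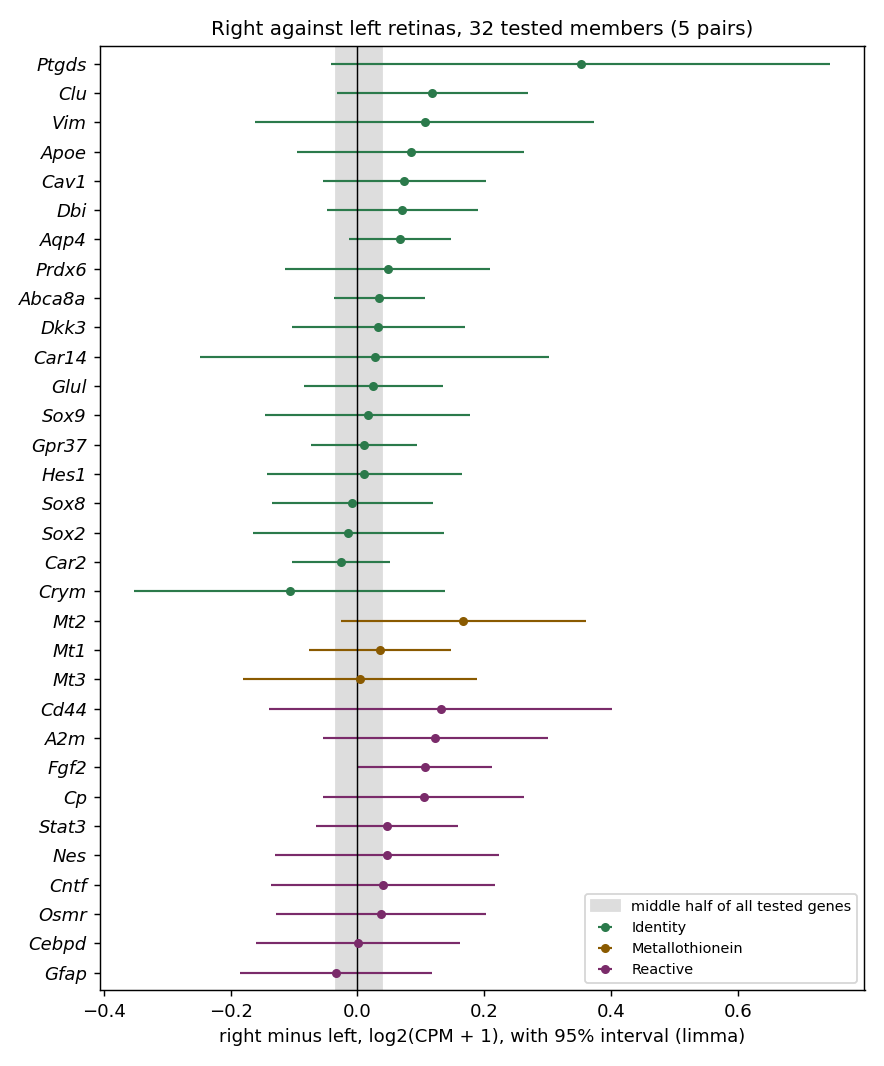
Right minus left in log2(CPM + 1) for the 32 tested members, as the limma estimate over 5 pairs with its 95% interval, by class; the grey band runs from the lower to the upper quartile of all tested genes. Estimates for 27 members lie right of 0, and the interval of Ptgds is the widest.

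Within single mice the members were set beside all tested genes of the same pair. In mouse 65 the right retina was the higher one for 17 of 19 identity genes and 8 of 10 tested reactive genes, beside 62.7% of all tested genes, and the members' median difference was 0.15 log2 units beside 0.04 for all tested genes. Of the 3 metallothioneins 1 was higher on the right in mouse 65. In mouse 61 the right retina was the higher one for 13 of 32 members (40.6%), close to the 38.0% of all tested genes. In mouse 64 it was the higher one for 16 of 32 members, beside 44.1% of all tested genes. For mouse 66 the count was 17 of 32 members, beside 60.4%, with 12 of 19 identity but 3 of 10 tested reactive genes. In mouse 68 the right retina was the higher one for 21 of 32 members (65.6%), beside 47.1% of all tested genes. Mouse 65 held the largest of a gene's 5 differences for 18 of 32 members, beside 19.6% of all tested genes. The left retina of mouse 65 was the low one: the median deviation of the identity genes from their 10-library mean was 0.11 log2 units in its right retina and −0.13 in its left, against 0.02 and −0.03 for all tested genes. The part of lens RNA, at 765 CPM in the right and 6.95 CPM in the left retina of this mouse, was not tested.

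**Figure D3:**
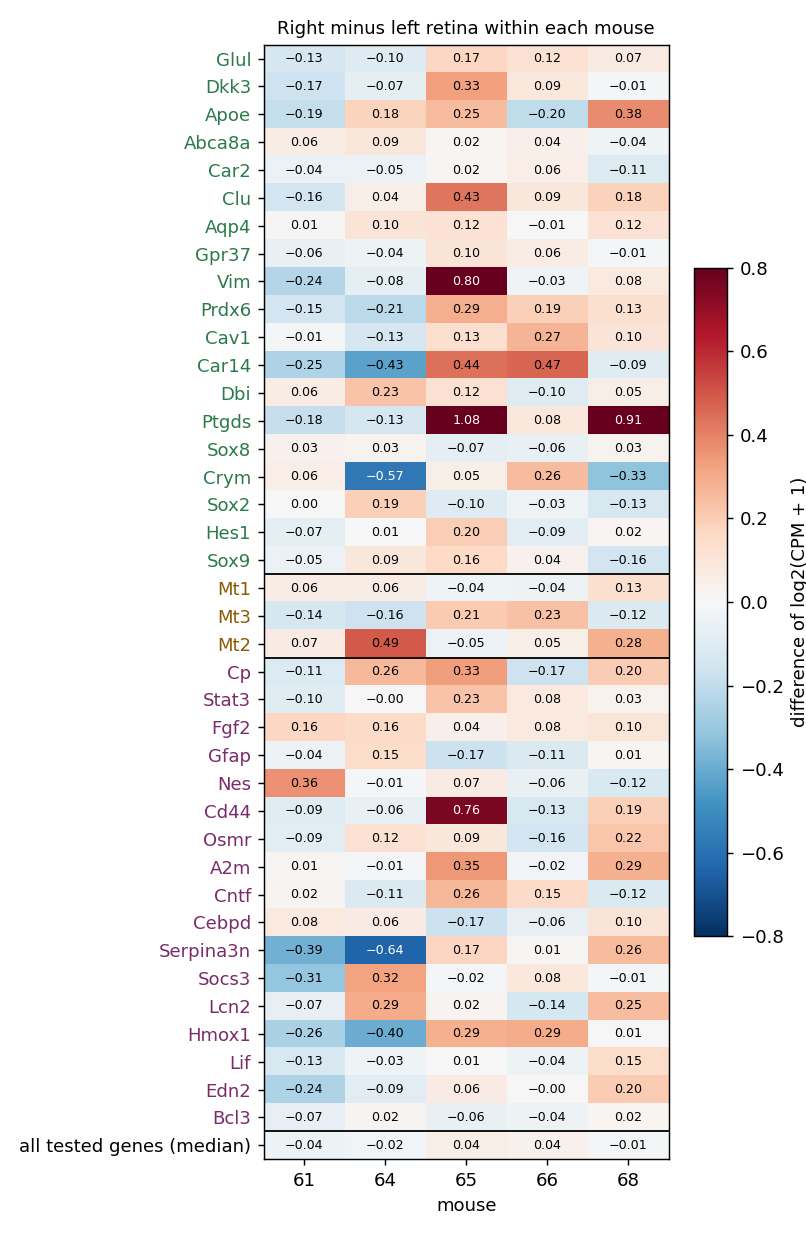
Right minus left retina of each mouse in log2(CPM + 1), 39 genes by 5 mice, with the median of all tested genes in the last row; red is higher in the right retina, and colours saturate at the ends of the scale. The column of mouse 65 is mostly red, with Ptgds at 1.08, Vim at 0.80 and Cd44 at 0.76.

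Among the identity genes the defining enzyme and the water channel gave no difference between sides that passed the test. Glul had 602, 596, 617, 579 and 643 CPM in the right retinas of mice 61, 64, 65, 66 and 68, against 661, 639.7, 549, 533 and 611 CPM in the left retinas in the same order. The right values lie within the range of the left ones, and the difference was 0.03 log2 units (SE 0.05, 95% interval −0.09 to 0.14, adjusted p = 0.9996 by limma). Leaving out mouse 65 turned its sign, to −0.0104.

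Aqp4, the water channel of Müller end-feet and astrocytes, had 35.3, 44.2, 39.5, 37.8 and 36.9 CPM in the right retinas, against 35.2, 41.2, 36.3, 38.0 and 34.0 CPM in the left. The right retina was the higher one in 4 of 5 mice, by 0.07 log2 units on average (SE 0.04, adjusted p = 0.9996 by limma), and both retinas of mouse 64 were above the other 8. Sox9, a transcription factor of Müller glia and their progenitors, had 0.824, 1.33, 1.00, 1.23 and 0.985 CPM in the right retinas, against 0.886, 1.19, 0.794, 1.17 and 1.21 CPM in the left. The sides overlapped throughout, with a difference of 0.02 log2 units (SE 0.07).

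The other transcription factors of the identity group also had small differences. Sox2, Sox8 and Hes1, a Notch target, averaged 3.51 ± 0.473, 4.37 ± 0.506 and 2.11 ± 0.329 CPM in right retinas and 3.55 ± 0.382, 4.39 ± 0.434 and 2.08 ± 0.234 CPM in left retinas (SD, n = 5 each). Sox2 lies inside the long noncoding gene Sox2ot on the same strand, which averaged 5.28 CPM, so how reads were shared between them matters and is not known. Abca8a, an ABC transporter, and Gpr37, an orphan receptor, averaged 87.1 ± 6.08 and 37.1 ± 1.96 CPM in right retinas and 85.0 ± 5.10 and 36.8 ± 0.901 CPM in left retinas. The lipid and peroxide handlers Dbi, an acyl-CoA binding protein, and Prdx6, a peroxiredoxin, averaged 12.96 ± 1.303 and 19.01 ± 1.86 CPM in right retinas and 12.3 ± 1.18 and 18.46 ± 2.82 CPM in left retinas. Cav1, the coat protein of caveolae, averaged 17.4 ± 1.90 CPM in right retinas and 16.4 ± 0.718 CPM in left retinas.

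The size of the fellow-eye difference, whichever eye wore the lens, was measured as the root mean square over the 5 mice of right minus left. Its median was 0.131 log2 units over all tested genes and 0.15 over the tested members. Apoe had 103, 126, 107, 95.4 and 99.95 CPM in the right retinas, against 117, 111, 89.7, 109.8 and 76.8 CPM in the left, a root mean square difference of 0.25, higher than in 92.7% of all tested genes. Clu stood higher on the right in 4 of 5 mice, by 0.43 log2 units in mouse 65 and by 0.04 to 0.18 in mice 64, 66 and 68, with −0.16 in mouse 61. Without mice 65 and 68 its mean difference was −0.00636. Car2 was among the steadiest members, with a root mean square difference of 0.063.

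Ptgds, the prostaglandin D synthase that also serves as a retinoid carrier between retina and pigment epithelium, had the widest differences of any member. It had 12.4, 15.4, 14.5, 8.95 and 10.5 CPM in the right retinas, against 14.3, 16.96, 6.30, 8.40 and 5.12 CPM in the left. The right retina was the higher one in mice 65, 66 and 68 and the lower one in mice 61 and 64. The root mean square difference was 0.642 log2 units, above 99.4% of all tested genes, and the mean difference was 0.35 (SE 0.18, 95% interval −0.04 to 0.75, adjusted p = 0.9996 by limma). Without mouse 65 the mean difference was 0.169, and without mice 65 and 68 it was −0.078. The summed level of 7 pigment epithelium genes, a tissue that also makes Ptgds, was 19.96, 14.2, 22.0, 18.9 and 18.8 CPM in the right retinas, against 20.99, 24.6, 12.5, 12.3 and 10.6 CPM in the left. All 7 of those genes were measured, 5 of them at a mean of 1 CPM or more, and Best1 was at 0 in at least 1 library. Ptgds and that sum went in the same direction in 5 of 5 mice, as did 8.59% of all tested genes and, among the other members, Glul, Cav1, Prdx6, Stat3, Serpina3n and Hmox1. The part of pigment epithelium RNA in the Ptgds values was not tested.

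Vim and Car14 followed Ptgds in the size of the fellow-eye difference. Vim, the filament of resting Müller glia and also of the lens, had 24.9, 24.6, 39.1, 22.9 and 24.0 CPM in the right retinas, against 29.5, 26.1, 22.1, 23.3 and 22.7 CPM in the left. The right retina of mouse 65 stood far above the other 9, the same library in which the 8 lens genes summed to 765 CPM, and without mouse 65 the mean difference was −0.0664 log2 units in place of 0.11 (SE 0.12). The lens sums of mice 61, 64, 66 and 68 were 46.6, 23.3, 107 and 43.9 CPM on the right and 32.4, 43.8, 31.2 and 21.3 CPM on the left, and Vim and the lens sum went in the same direction in 3 of 5 mice. Car14, a membrane carbonic anhydrase of Müller glia and pigment epithelium, had 15.2, 11.1, 14.2, 13.3 and 12.6 CPM in the right retinas, against 18.3, 15.3, 10.2, 9.32 and 13.5 CPM in the left. It was lower on the right in mice 61, 64 and 68 and higher in mice 65 and 66, so that the mean difference was 0.03 log2 units (SE 0.12) although the root mean square was 0.366.

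Car14 shared its order of signs with Dkk3, Car2, Gpr37 and Mt3, and with the libraries at large. All 5 genes were lower on the right in mice 61, 64 and 68 and higher in mice 65 and 66, a pattern held by 2419 of the 14210 tested genes. The median right-minus-left difference of all tested genes had the same signs, at −0.04, −0.02, 0.04, 0.04 and −0.01 log2 units in mice 61, 64, 65, 66 and 68. Crym, a thyroid hormone binding protein, differed from this pattern in mouse 61 alone and ranged from −0.57 in mouse 64 to 0.26 in mouse 66. Apoe, Hes1, Cp, Lcn2 and Osmr shared another order, lower on the right in mice 61 and 66 and higher in mice 64, 65 and 68, which 2.97% of all tested genes had. These groupings were made after the values were seen.

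The metallothioneins are small cysteine-rich proteins that bind zinc and copper. In mice Mt1 and Mt2 are induced together by metals, glucocorticoids and stress through metal response elements bound by MTF-1, while Mt3 is a brain form that metals induce little. The 3 genes lie in a row on chromosome 8 of GRCm38: Mt3 at bases 94152607 to 94154146, Mt2 at 94172664 to 94173568 and Mt1 at 94179082 to 94180327, all on the plus strand. Their promoters, from 250 bases before to 50 bases after the RefSeq start on GRCm38.p6, are shown because metals induce Mt1 and Mt2 through metal response elements. Capitals mark the core of the metal response element, searched as TGCACNC and TGCGCNC on both strands, and no 2 matches overlap.
Mt1 (chr8:94178839-94179138, plus strand): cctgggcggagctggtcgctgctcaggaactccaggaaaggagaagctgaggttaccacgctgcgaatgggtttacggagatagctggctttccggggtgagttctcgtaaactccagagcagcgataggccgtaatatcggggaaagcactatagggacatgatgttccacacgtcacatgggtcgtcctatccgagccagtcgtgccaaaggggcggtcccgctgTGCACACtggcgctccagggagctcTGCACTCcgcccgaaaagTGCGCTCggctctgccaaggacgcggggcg
Mt2 (chr8:94172368-94172667, plus strand): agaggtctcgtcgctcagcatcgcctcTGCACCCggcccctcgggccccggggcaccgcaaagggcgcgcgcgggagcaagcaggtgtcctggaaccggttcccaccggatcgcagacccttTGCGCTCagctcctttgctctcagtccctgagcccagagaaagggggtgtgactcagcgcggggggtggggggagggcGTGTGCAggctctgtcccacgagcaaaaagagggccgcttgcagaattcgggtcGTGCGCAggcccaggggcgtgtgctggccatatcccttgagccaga
Mt3 (chr8:94152357-94152656, plus strand): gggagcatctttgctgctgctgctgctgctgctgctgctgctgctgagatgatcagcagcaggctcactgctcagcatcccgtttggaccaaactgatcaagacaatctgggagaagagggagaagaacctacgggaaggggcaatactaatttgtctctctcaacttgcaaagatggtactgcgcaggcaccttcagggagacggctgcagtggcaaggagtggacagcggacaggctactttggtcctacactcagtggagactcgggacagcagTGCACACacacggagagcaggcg
The Mt1 window holds 3 matches and the Mt2 window 4, against 1 in the Mt3 window. The Mt1 matches at offsets 3 and 21, the Mt2 match at 5 and the Mt3 match at 28 lie after the RefSeq start. At least 1 match was found in 25.7% of the 32851 promoter windows in the table, and 3 or more in 1.97%. Of the 28 members with a promoter in the table, Mt1 and Mt2 were the 2 with 3 or more. A match is a description of letters, not evidence of binding.

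The 3 metallothioneins did not share an order of signs between fellow eyes, and that of Mt3 was the order of the libraries at large. Mt1 had 9.90, 9.15, 8.45, 9.10 and 7.62 CPM in the right retinas, against 9.44, 8.74, 8.69, 9.37 and 6.88 CPM in the left. The right retina had the higher value in mice 61, 64 and 68, by 0.06, 0.06 and 0.13 log2 units, and lower in mice 65 and 66, by differences of −0.04 each. Mt2 had 2.59, 2.76, 2.04, 2.32 and 2.23 CPM in the right retinas, against 2.44, 1.68, 2.15, 2.21 and 1.66 CPM in the left. It was higher on the right in 4 of 5 mice, by 0.17 log2 units on average (SE 0.09, 95% interval −0.03 to 0.36, adjusted p = 0.9996 by limma), with the largest difference, 0.49, in mouse 64; without that mouse the mean was 0.0864. The antisense gene Gm45774 overlaps Mt2 and averaged 0.111 CPM.

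Mt3 had 2.49, 2.59, 2.24, 2.76 and 2.02 CPM in the right retinas, against 2.86, 3.02, 1.80, 2.20 and 2.27 CPM in the left. Its right-minus-left difference had the opposite sign to that of Mt1 in 5 of 5 mice and to that of Mt2 in 4 of 5, whereas Mt1 and Mt2 had the same sign in 4 of 5. Signs opposite to those of Mt1 in 5 of 5 mice were held by 2419 of the 14210 tested genes, so Mt3 shared this with many genes. These counts were the same with the libraries rescaled by their median ratio. They are 3 genes read in the same 5 pairs, some of the differences are near 0, and no test was made. Mt1 and Mt2 are alike in coding sequence, and how reads that fit both were counted is not known. The mean difference over mice was 0.04 log2 units (SE 0.05) for Mt1 and 0.004 (SE 0.08) for Mt3.

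**Figure D4:**
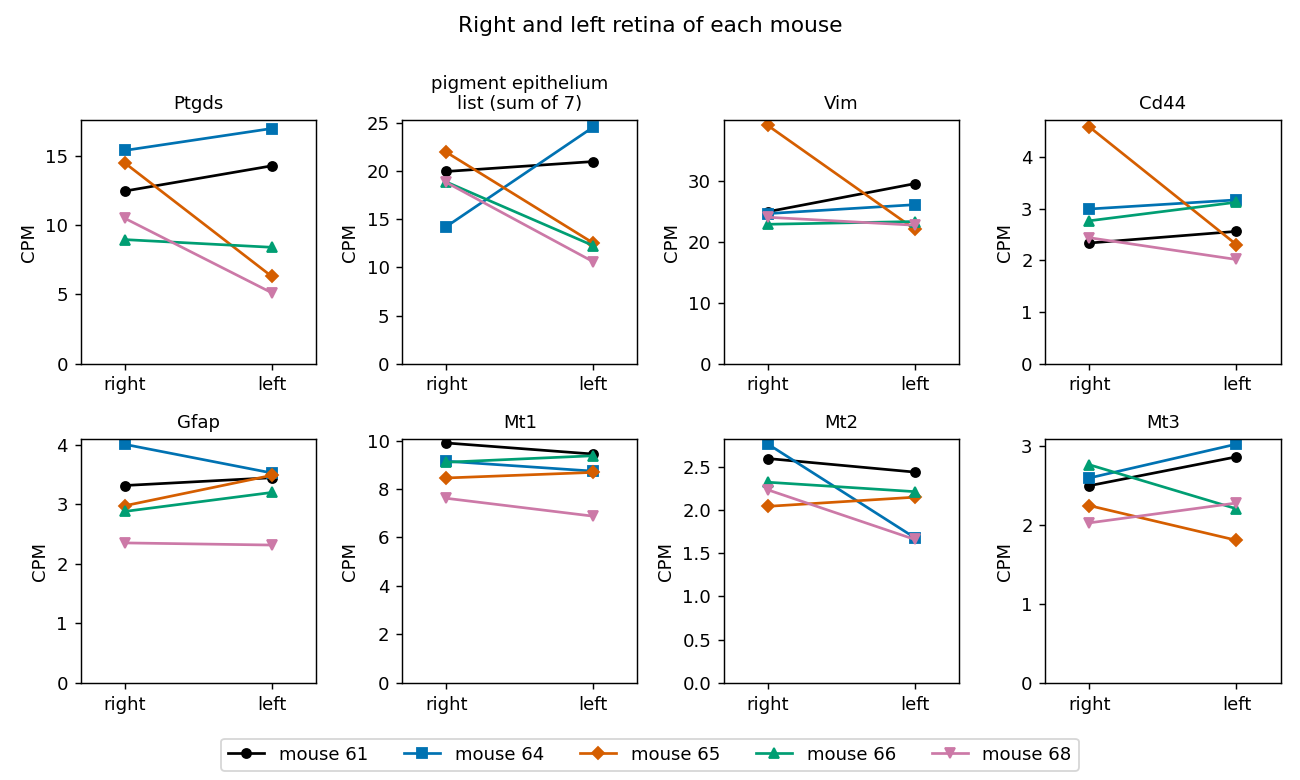
CPM in the right and left retina of each mouse, joined by a line, for 7 genes and for the sum of the 7 pigment epithelium genes; each axis starts at 0. Ptgds and the pigment epithelium sum slope the same way in every mouse, Vim and Cd44 stand out in the right retina of mouse 65, Gfap and Mt1 are lowest in both retinas of mouse 68, and the lines of Mt3 slope against those of Mt1, as those of 2419 tested genes do.

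Among the reactive genes Gfap, the filament gene most used as a sign of gliosis, gave no difference between sides that passed the test. It had 3.32, 4.01, 2.98, 2.88 and 2.35 CPM in the right retinas, against 3.45, 3.53, 3.49, 3.20 and 2.32 CPM in the left. The right retina was the higher one in mice 64 and 68 and the lower one in mice 61, 65 and 66, and the difference was −0.03 log2 units (SE 0.07, 95% interval −0.19 to 0.12, adjusted p = 0.9996 by limma). The root mean square difference between fellow eyes was 0.115, above 40.2% of all tested genes. The summed level of 6 astrocyte genes was 14.4 to 16.6 CPM in right retinas and 13.01 to 14.95 CPM in left retinas, with 5 of the 6 at a mean of 1 CPM or more and Pax2 at 0 in at least 1 library. The other filament gene of the group, Nes, averaged 3.12 ± 0.284 CPM in right retinas and 2.997 ± 0.459 CPM in left retinas.

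Cd44, the hyaluronan receptor of Müller microvilli, repeated the picture of Vim. It had 2.34, 2.996, 4.58, 2.77 and 2.44 CPM in the right retinas, against 2.56, 3.17, 2.31, 3.13 and 2.02 CPM in the left. The right retina of mouse 65 was above the other 9, and the mean difference of 0.13 log2 units (SE 0.12) was −0.0249 without that mouse.

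Fgf2, a growth factor that protects photoreceptors and is made by stressed Müller glia and photoreceptors, was the sole member higher on the right in 5 of 5 mice, as were 2.78% of all tested genes; 2.01% were lower in 5 of 5, with no member among them. It had 11.7, 10.4, 9.95, 8.55 and 8.41 CPM in the right retinas, against 10.3, 9.19, 9.66, 8.05 and 7.80 CPM in the left. The sides overlapped, and the difference within mice was 0.11 log2 units (SE 0.05, 95% interval 0.001 to 0.21, unadjusted p = 0.0487, adjusted p = 0.9996 by limma). It ran from 0.09 to 0.12 when single mice were left out.

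The signalling members gave no call either. Stat3, the transcription factor of the gp130 pathway, averaged 19.02 ± 0.936 CPM in right retinas and 18.47 ± 2.32 CPM in left retinas (SD, n = 5 each). Osmr, the oncostatin M receptor, averaged 2.75 ± 0.455 CPM on the right and 2.67 ± 0.551 CPM on the left. Cebpd, a transcription factor induced by STAT3, averaged 1.03 ± 0.194 CPM on the right and 1.03 ± 0.127 CPM on the left. Cntf, a survival cytokine, averaged 1.27 ± 0.334 CPM on the right and 1.19 ± 0.131 CPM on the left, but its gene lies within Zfp91 on the same strand, which averaged 58.4 CPM, so part of its value may belong to that gene. The iron oxidase Cp averaged 59.6 ± 6.38 CPM on the right and 55.4 ± 6.23 CPM on the left, and the protease inhibitor A2m 2.12 ± 0.276 and 1.89 ± 0.470 CPM in the same order of sides. A2m differed by 0.347 log2 units in mouse 65 and 0.287 in mouse 68, and by −0.021 to 0.007 in the other mice. Cp differed by −0.109, 0.259, 0.333, −0.166 and 0.205 log2 units in mice 61, 64, 65, 66 and 68. Hps3 overlaps Cp on the opposite strand and averaged 23.8 CPM. The library kit keeps the strand, but the counting rule is not given in the sources used here.

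A STAT motif was searched as TTCNNNGAA, which reads the same on both strands. It was found in 2 of the 28 members with a promoter window, Gfap and Socs3, and in 8.3% of all windows. The share of members was thus not above that of all windows. The Gfap match lies at offset −2 from the RefSeq start and the Socs3 match at −154, and a match is not evidence of binding. The matches, from RefSeq on GRCm38.p6, are shown with 10 bases on each side, in the direction of the gene and with the motif in capitals, because both genes are textbook targets of STAT3.
Gfap (chr11:102897184-102897212, minus strand): atgggggtgcTTCCAGGAAgtcaggggca
Socs3 (chr11:117969502-117969530, minus strand): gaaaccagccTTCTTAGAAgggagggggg
Socs3, the inhibitor that STAT3 induces to limit its own signal, had 0.846, 0.930, 0.881, 0.861 and 0.788 CPM in the right retinas, against 1.29, 0.541, 0.902, 0.759 and 0.797 CPM in the left. The right retinas lay within the range of the left ones.

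The 7 reactive genes under 1 CPM were measured but not tested in the main comparison. Lcn2, an iron-carrying acute-phase lipocalin, had 0.579, 1.02, 0.636, 0.518 and 0.602 CPM in the right retinas, against 0.654, 0.650, 0.612, 0.675 and 0.351 CPM in the left. The highest was the right retina of mouse 64 and the lowest the left retina of mouse 68, with the sides overlapping. Edn2, an endothelin that injured photoreceptors release towards Müller glia, had 0.200, 0.0939, 0.0892, 0.0351 and 0.175 CPM in the right retinas, against 0.422, 0.162, 0.0429, 0.0370 and 0.0213 CPM in the left. The highest value stood for about 39.9 counts (left retina of mouse 61) and the lowest for about 2 counts (left retina of mouse 68), so differences among the low libraries cannot be read at this depth.

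Serpina3n, an acute-phase protease inhibitor, ranged from 0.425 to 1.81 CPM, with the left retinas of mice 61 and 64 at 1.69 and 1.81 CPM above the other 8, which reached 1.13 CPM. Serpina3n has close relatives in its cluster among which reads may be shared. Hmox1, the haem oxygenase of the oxidative stress response, ranged from 0.333 to 0.920 CPM, Lif, a gp130 cytokine, from 0.0425 to 0.274 CPM, and Bcl3 from 0.0112 to 0.116 CPM, the lowest standing for about 1 count. In a fit with no filter on low values, 0 of 39 members were called between sides.

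No member passed the test of differences between mice either. The F-test of limma on the mouse block called 0 of 32 members after adjustment across all genes, where it called 0.57% of all tested genes. At an unadjusted p under 0.05 it had 10 of 32 members, namely Aqp4, Sox8, Abca8a, Dbi and Ptgds among the identity genes, Mt1, and Gfap, Fgf2, Stat3 and Osmr among the reactive genes, beside 13.8% of all tested genes. The lowest adjusted p were those of Fgf2 (0.155), Aqp4 (0.217), Mt1 (0.234) and Gfap (0.236). By class these were 5 of 19 identity genes, 1 of 3 metallothioneins and 4 of 10 tested reactive genes. Without mice 65 and 68, Ptgds was called, and then 1 of 33 members passed, beside 41 of all 14234 tested genes. The members at an unadjusted p under 0.05 were then 8 of 33, beside 12.4% of all tested genes, with none of the 3 metallothioneins among them.

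Most reactive genes and the metallothioneins stood highest in mice 61 and 64. The mean of both retinas was highest in mouse 61 or mouse 64 for 15 of 17 reactive genes, 3 of 3 metallothioneins and 11 of 19 identity genes, beside 53.9% of all tested genes. Of the 10 reactive genes at or above 1 CPM, which compare directly with that share, it was so for 8. Cd44 and Cntf, highest in mouse 65, were the other two reactive genes. With the libraries rescaled by their median ratio the counts were 15 of 17, 3 of 3 and 10 of 19, beside 50.6% of all tested genes. The mean was lowest in mouse 68 for 7 of 17 reactive genes, 2 of 3 metallothioneins and 3 of 19 identity genes, beside 18.3% of all tested genes. The difference between the classes was not tested.

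Both retinas of mouse 68 lay below the other 8 libraries for Gfap and Mt1, 2 of 32 tested members or 6.25%, beside 2.69% of all tested genes. Gfap had 2.35 CPM (right) and 2.32 CPM (left) in mouse 68, against 2.88 to 4.01 CPM in the other mice. Mt1 had 7.62 and 6.88 CPM there, against 8.45 to 9.90 CPM in the other mice. In mouse 68 the mean of both retinas was below the mean of the 5 mice for 15 of 17 reactive genes. These ran from −0.305 log2 units for Gfap to −0.011 for Cntf, with Fgf2 at −0.183, Cd44 at −0.229 and A2m at −0.189. Cebpd lay above at 0.084. Identity genes lay on both sides there, with 9 of 19 below their mean, such as Ptgds at −0.47 and Apoe at −0.227, and Hes1 above at 0.17. The median deviation of mouse 68 was −0.098 for the tested reactive genes, −0.122 for the metallothioneins, 0.005 for the identity genes and −0.007 for all tested genes. Both retinas of a mouse share the animal, its age and its handling, so each mouse is 1 animal read in 2 libraries, and what set the mice apart was not tested.

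**Figure D5:**
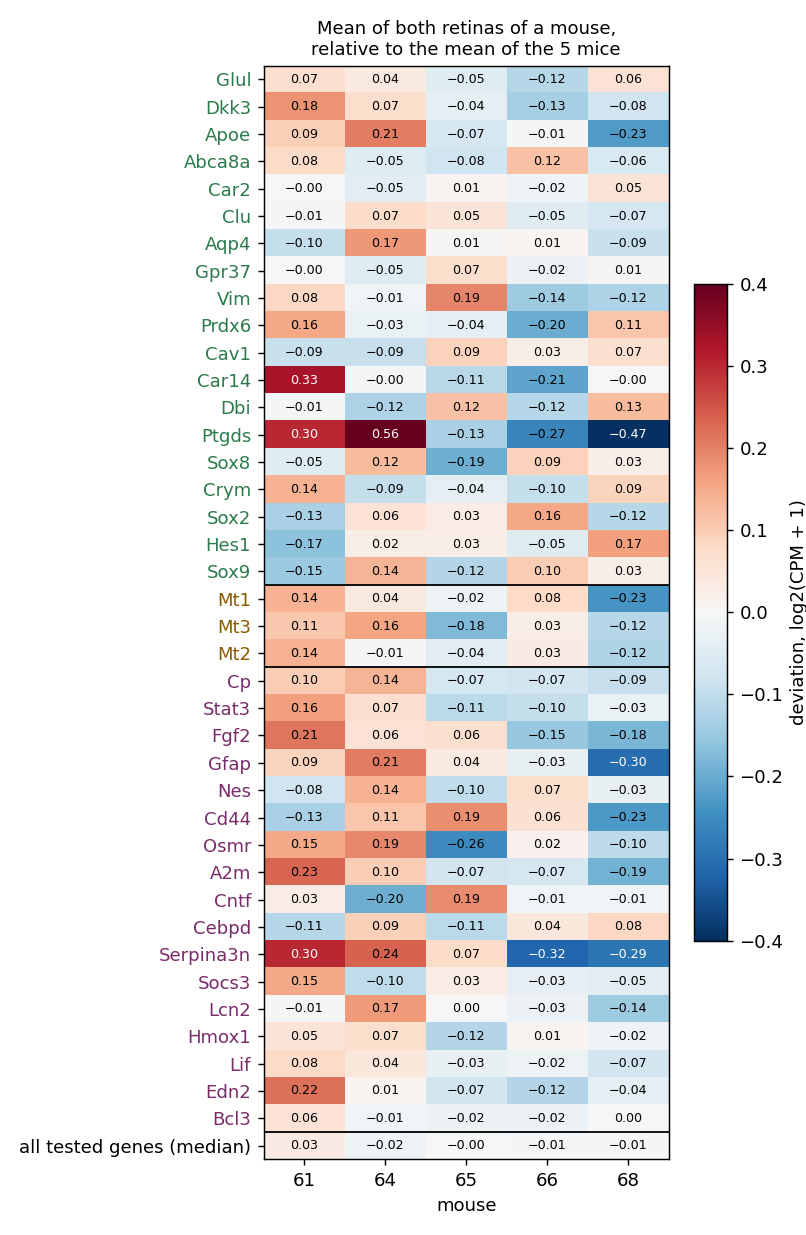
Mean of both retinas of each mouse relative to the mean of the 5 mice, in log2(CPM + 1), for the 39 genes and, in the last row, the median of all tested genes; red is above and blue below the mean, and colours saturate at the ends of the scale. Ptgds is at 0.56 in mouse 64 and −0.47 in mouse 68, Gfap at 0.21 and −0.30 in the same 2 mice, and the reactive genes are mostly red in mice 61 and 64.

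Other genes of the same pathways gave no call between sides. Of 26 further genes of gp130, JAK and STAT signalling, 24 were measured and 17 tested, 10 of them above 0 in right minus left (median 0.01 log2 units beside 0.002 for all tested genes), and 0 passed in either direction. The 3 of lowest p were the immediate early gene Fos (−0.16, SE 0.07), the kinase Tyk2 (−0.11, SE 0.07) and the feedback inhibitor Socs2 (0.08, SE 0.08). Between mice Fos alone of the 17 passed (adjusted p = 0.00018 by limma), at 15.2 CPM (right) and 18.2 CPM (left) in mouse 61 against 3.80 to 6.27 CPM in the other 8. The shared receptor chain gene Il6st averaged 40.5 ± 1.34 CPM in right retinas and 39.7 ± 2.18 CPM in left retinas (SD, n = 5 each), and the receptor gene Lifr 65.3 ± 2.59 and 65.3 ± 3.11 CPM in the same order.

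Of 18 other Müller glia genes all were tested and 0 passed between sides or between mice, with 10 above 0 in right minus left and a median of 0.02 log2 units. Those of lowest p were the integrin subunit Itgb8 (0.19, SE 0.07), the potassium channel Kcnj10 (0.13, SE 0.07) and the BMP target Id1 (0.13, SE 0.08). Of 14 genes of metal and oxidative defence, 12 were tested and 0 passed between sides or between mice, with 9 above 0 and a median of 0.05 log2 units. The leading ones were the ferritin heavy chain gene Fth1 (0.17, SE 0.06), the zinc exporter Slc30a1 (0.14, SE 0.06), which is also an MTF-1 target, and the cystine transporter Slc7a11 (0.55, SE 0.22), each higher on the right in 4 of 5 mice. Slc7a11 averaged 5.63 CPM in right retinas and 3.83 CPM in left retinas, with the left retinas of mice 65 and 68 lowest, at 2.03 and 1.53 CPM; without these mice its mean difference was −0.00134 log2 units. Sums of other cell types overlapped between sides: microglia genes were at 9.93 to 11.99 CPM in right retinas and 9.20 to 12.2 CPM in left retinas, and endothelial genes at 45.6 to 57.7 CPM in right retinas and 48.8 to 55.65 CPM in left retinas. Fibroblast genes were at 8.97 to 15.35 CPM in right retinas and 6.88 to 9.94 CPM in left retinas. Within mice the sums of fibroblast, astrocyte, endothelial and lens genes were each higher on the right in 4 of 5 mice, the side to which the members leaned, and their part in that lean was not tested.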

How the data were processed

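Total RNA of 10 retinas was sequenced from stranded libraries after ribosomal RNA removal, per the labels' protocols. Per the submitters' processing notes, the tools were STAR and Partek and the build GRCm38 (mm10). Counting rule, filters and normalization: not given in the sources used here. Deposited values were read as CPM with 0.0001 added, since 90.8% to 91.7% of the values up to 20 times the smallest step were whole multiples of it within a tolerance of 0.1, too few for a count test; the step was 0.00881 to 0.0112 CPM by library. The offset was removed and log2(CPM + 1) analysed with limma 3.58.1 (R 4.3.3), with trended variances, over the 14210 genes averaging 1 CPM or more; the script was tested on simulated data. Retinas of 1 number come from the same animal, and their deviations from the side means correlated at 0.607, 0.143, 0.166, 0.172 and 0.311 in mice 61, 64, 65, 66 and 68, so the mouse was a block. Deposited starts matched GENCODE M21 for 25087 of 25224 genes, and ends are printed 1 base before the deposited stop, which matched for 25076. Members and lists were chosen with earlier results of these data known. Every member may be named; full values are given for the metallothioneins, Glul, Aqp4, Sox9, Gfap, Edn2, Lcn2 and the 3 members of widest fellow-eye difference, and Apoe, Fgf2, Cd44 and Socs3 were added after their values were seen. Of other pathway genes, those passing a test and the 3 of lowest p were named, and Il6st and Lifr were added. Alternatives were other pseudocounts, no filter, rescaled libraries, no trend, no replicate block, and mice left out. With the mouse as a block, p-values between sides rest on the spread of the right-minus-left differences among these mice, as moderated by limma. Moderation draws the variance of each gene towards that of tested genes of like level. Printed SEs, intervals and p-values are thus not those of a gene's own differences alone. The p-values of the F-test between mice set the mouse means against that same moderated spread, with the retinas of an animal as replicates.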

Additional observations from a re-analysis of the deposited data

Results flagged for a closer look

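In 5 of 78 groups of 5 retinas, 1 sample stood apart from the others of its side by the size of its gap (Dixon's ratio above 0.71), where chance gives about 1 in 20 groups. In mouse 65 the right retina had 39.1 CPM of Vim, with the next right retina at 24.9 CPM. In mouse 68 the left retina had 2.32 CPM of Gfap, with the nearest left retina at 3.20 CPM. Lcn2 was high in the right retina of mouse 64 (1.02 CPM, the nearest right retina being at 0.636 CPM) and low in the left retina of mouse 68 (0.351 CPM, the nearest left retina being at 0.612 CPM). In mouse 61 the left retina had 0.116 CPM of Bcl3, about 11 counts, with the next left retina at 0.0537 CPM.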

How the results depend on the processing

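No setting called a gene between sides: the count was 0 over all genes and 0 over the members in each fit, with no replicate block (0 called) among them, so the pairing changed no call. The 81 genes called between mice became 36 without the variance trend, 41 without mice 65 and 68, and 23 to 88 when single mice were left out, with the lowest counts without mouse 61 (23), mouse 68 (39) and mouse 66 (53); without mice 65 and 68, 1 member, Ptgds, passed. The cause was not tested, beyond there being fewer samples. Signs of small differences turned. Without mice 65 and 68 right minus left was −0.078 for Ptgds, −0.114 for Vim, −0.0707 for Car14, −0.0248 for Mt3, −0.0383 for Glul, −0.0959 for Cd44 and −0.00636 for Clu, and, chosen after seeing the data, −0.00134 for Slc7a11. With 5 CPM as pseudocount Mt3 was at −0.00013. With single mice left out the ranges were −0.0664 to 0.192 for Vim, −0.0826 to 0.142 for Car14, −0.0528 to 0.0458 for Mt3, −0.0104 to 0.0647 for Glul, −0.0193 to 0.0595 for Sox9, −0.079 to 0.000947 for Gfap, −0.0249 to 0.197 for Cd44, 0.0864 to 0.221 for Mt2 and 0.34 to 0.722 for Slc7a11. The 7 members under 1 CPM are limited by depth, and changes of weak genes are understated on this scale.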
